A study of Mus musculus with 40 samples.

Results

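The genes described here are 9 genes of macrophages and of the complement system: C1qa, C1qb, C1qc, C3, Lyz2, Apoe, Csf1r, Cd68 and Ctss. They were chosen by name with earlier results of these data known, as were the gene lists used below. Each of the 9 genes matched 1 of the 45792 mouse gene IDs of the count table through its Ensembl gene ID. RNA came from mouse colon, either as isolated epithelial cells or as total tissue, and was sequenced as 3′ digital gene expression, in which reads are counted near the 3′ end of each transcript. The T.mu groups came from mice given 2000000 sorted cells of Tritrichomonas musculis, a gut protozoan, and the control groups from mice that received no inoculum. Collection was at day 3, 14 or 48, which gave 12 groups and 40 libraries: every group held 3 at the earlier times, and 4 at the last. Replicate numbers are those of the sample titles and are taken here as litter numbers. The series describes 3 mice per group, fewer than the 4 libraries at day 48, so p-values measure the spread between libraries. The strain, genotype, sex and age of the mice and the way the epithelial cells were isolated are not given in the sources used here.

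Macrophages are resident in the wall of the colon, mostly in the lamina propria beneath the epithelium, where they clear dying cells and microbes. Their survival depends on signalling through Csf1r, the receptor of the growth factors CSF1 and IL-34, and they make much of the C1q found in tissues. C1qa, C1qb and C1qc encode the chains of C1q, which binds antibody complexes and dying cells and starts the classical complement pathway. C3 is the protein on which all complement pathways converge, and stromal cells, epithelial cells and fat cells can make it as well as macrophages. Lyz2 encodes lysozyme of myeloid cells, Cd68 a glycoprotein of late endosomes and lysosomes, Ctss the protease cathepsin S, which trims the invariant chain of MHC class II, and Apoe a lipid carrier that macrophages secrete.

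Promoter windows are shown for 4 of the genes because they hold the letters of motifs bound by myeloid and inflammatory transcription factors: Ctss, the gene with the most RNA left in epithelium, C1qb and C1qc, neighbours whose values differed, and C3. Each window is the 250 bases before the transcription start, taken from RefSeq on GRCm38.p6 and written 5′ to 3′ on the gene's strand. Capitals mark matches, on either strand, to GAGGAA (the core bound by PU.1, a macrophage lineage factor), to TTGCNNAA (bound by C/EBP factors) or to the interferon-stimulated response element. Ctss lies at chr3:95526536-95526785 on the plus strand. C1qb lies at chr4:136886201-136886450, C1qc at chr4:136892915-136893164 and C3 at chr17:57228137-57228386, each on the minus strand.
Ctss: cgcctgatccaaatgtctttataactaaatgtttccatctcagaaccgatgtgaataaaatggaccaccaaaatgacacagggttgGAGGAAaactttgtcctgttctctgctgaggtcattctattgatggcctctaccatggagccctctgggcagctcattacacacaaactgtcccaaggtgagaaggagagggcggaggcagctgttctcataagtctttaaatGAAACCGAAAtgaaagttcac
C1qb: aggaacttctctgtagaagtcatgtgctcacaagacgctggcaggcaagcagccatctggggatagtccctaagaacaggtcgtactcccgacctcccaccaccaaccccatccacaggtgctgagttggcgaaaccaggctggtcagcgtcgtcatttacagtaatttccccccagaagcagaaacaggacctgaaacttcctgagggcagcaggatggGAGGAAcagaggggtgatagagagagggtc
C1qc: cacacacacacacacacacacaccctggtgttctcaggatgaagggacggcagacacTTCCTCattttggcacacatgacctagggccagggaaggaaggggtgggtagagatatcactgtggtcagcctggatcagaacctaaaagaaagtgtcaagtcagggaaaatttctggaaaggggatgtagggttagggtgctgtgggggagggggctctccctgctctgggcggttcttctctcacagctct
C3: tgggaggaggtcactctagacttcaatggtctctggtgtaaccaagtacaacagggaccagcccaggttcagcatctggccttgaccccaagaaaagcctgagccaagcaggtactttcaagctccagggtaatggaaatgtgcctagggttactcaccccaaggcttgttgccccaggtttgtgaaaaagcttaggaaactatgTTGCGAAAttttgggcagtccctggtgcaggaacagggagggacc
The bases that follow the RefSeq start of C1qb were not found in a GENCODE transcript of that gene, so its start is uncertain, while those of the other 3 were found. The PU.1 core began 30 bases before the start of C1qb, 193 bases before that of C1qc, where it is read on the opposite strand, and 164 bases before that of Ctss. The capitals near the end of the Ctss window match the interferon-stimulated response element, and those of C3 match the C/EBP letters. In all, 7 of the 9 genes had 9 windows that were searched. C1qa had no window in the source. Csf1r was left out by a rule on its chromosome that was not applied to the windows of all genes. The PU.1 core was in 6 of the 9 windows and in 23.3% of 32851 windows of all genes, the C/EBP letters in 2 and in 9.56%, and the interferon-stimulated response element in 1 and in 2.98%. In the Ctss window both motifs are present, at separate places. Of the 3 Apoe windows a pair overlap. A match is a description of the letters and not a measured binding site. C1qb, C1qc and C1qa follow each other on chromosome 4 in the RefSeq order.

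The libraries held 220733 to 6756802 counts in total tissue (median 2176603) and 170297 to 2867502 in epithelium (median 1166986), and 7 libraries held fewer than 400000. Depth moved with the groups in total tissue: the day 14 control libraries had a median of 351625 counts against 2129747 for T.mu, and the day 48 T.mu libraries had 506144 against 3325423.5 for the controls. The summed level of 11 fibroblast markers was 5.69 to 66.7 CPM, a count scaled to library size, in epithelial libraries and 890 to 2640 CPM in total tissue, and that of 7 smooth muscle markers was 26.6 to 76.0 against 2520 to 5840 CPM. The summed level of 11 epithelial markers was 26900 to 46100 CPM in epithelial libraries and 44100 to 74600 CPM in total tissue, so these markers were not enriched by the isolation. CPM values are scaled by edgeR's trimmed mean of M values (TMM) over all 40 libraries. Sample names carry a second barcode that was shared by both arms in every comparison of the same tissue and day except total tissue at day 48, where arm and barcode cannot be told apart.

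The first question was whether these genes differed between T.mu and control total tissue at each day. All 9 genes passed the filter on low counts there. At day 3, 5 of the 9 genes (C1qa, C1qb, C3, Lyz2 and Apoe) had all 3 T.mu libraries above all 3 controls, against 7.05% of all 11696 genes tested with T.mu above and 7.39% with T.mu below. None of the 9 passed the test, edgeR's quasi-likelihood test with Benjamini-Hochberg adjustment over all genes and a threshold of 0.05. By that test 0.479% of all genes were called at day 3. Among the 9, 5 had an unadjusted p under 0.05, against 5.18% of all genes, and 1, C3, was called by DESeq2, against 0.76% of the genes to which DESeq2 gave an adjusted p. Their median log2 fold change was 0.68 against -0.01 over all genes. The 9 genes were chosen with earlier results of these data known. The comparisons with all genes are thus a description and not a test of the set. In bulk tissue, a change in the number of macrophages and a change in RNA per macrophage cannot be told apart.

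**Figure D1:**
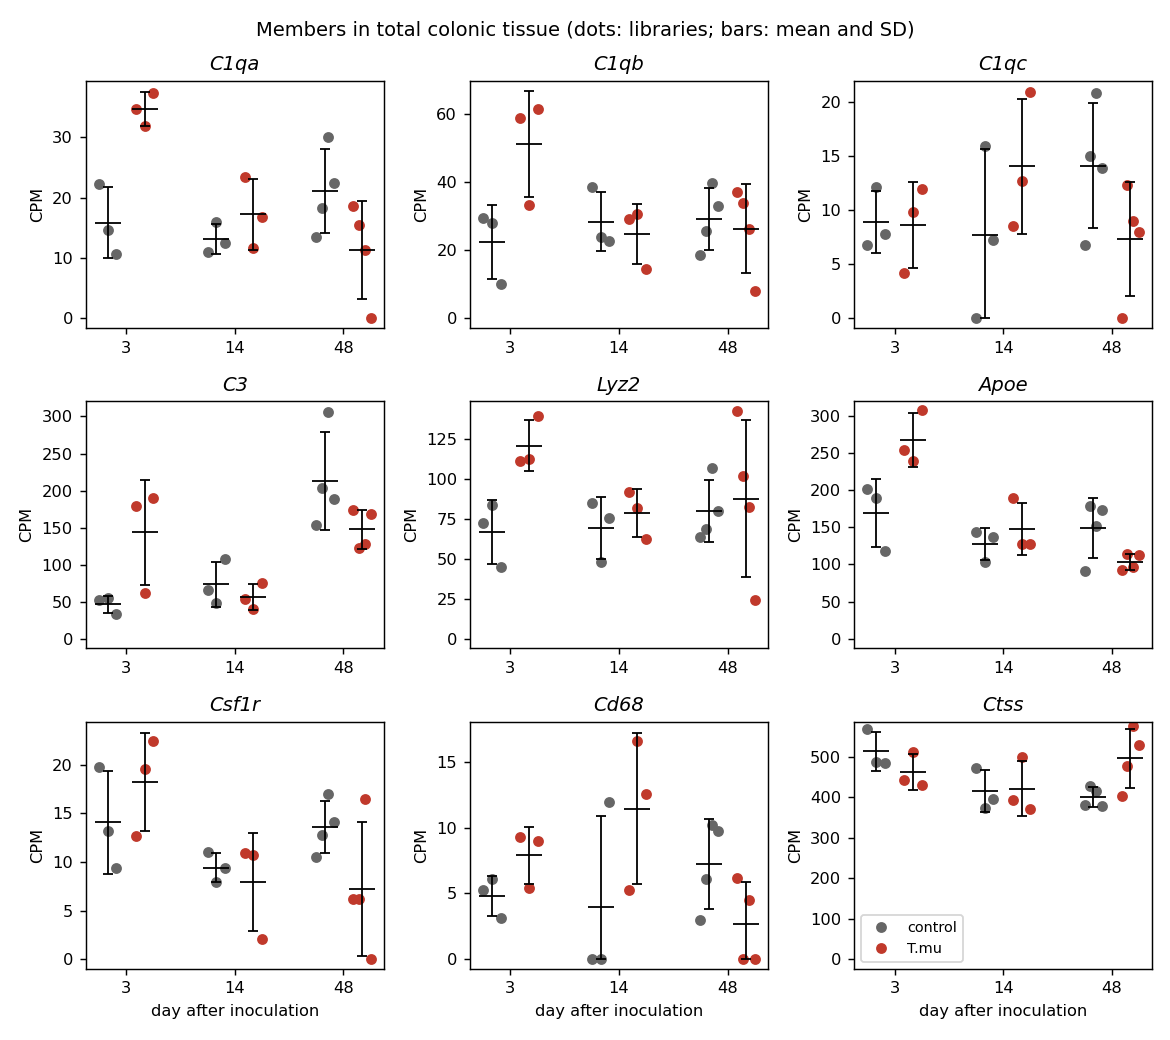
Level of each gene in total colonic tissue, in CPM scaled by TMM (vertical axis), by day after inoculation (horizontal axis); dots are libraries, grey for control and red for T.mu, with the mean and SD, and lower SD bars stop at 0. At day 3 the 3 T.mu dots lie above the 3 control dots for C1qa, C1qb, C3, Lyz2 and Apoe, and the groups overlap for all 9 genes at days 14 and 48.

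The A and B chains of C1q had similar values at day 3 and the C chain did not. C1qa was at 34.7, 31.8 and 37.4 CPM in the 3 T.mu libraries and at 22.2, 14.7 and 10.7 CPM in the 3 controls. The T.mu libraries lay close together and above every control, with means of 34.6 ± 2.79 and 15.9 ± 5.88 CPM (SD, n = 3 each). The log2 fold change was 1.13 ± 0.36 (SE; 2.18-fold), with an adjusted p of 0.263 by edgeR. C1qb was at 58.8, 33.3 and 61.3 CPM with T.mu and at 29.3, 27.9 and 10 CPM in controls. The second T.mu library was only just above the highest control. On the log2 scale the difference was 1.18 ± 0.33 (2.26-fold; adjusted p = 0.141 by edgeR).

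C1qc was at 4.23, 9.79 and 11.96 CPM with T.mu and at 6.795, 12.2 and 7.78 CPM in controls at day 3. The groups overlapped fully, and the log2 fold change was -0.08 ± 0.50 (adjusted p = 0.999 by edgeR). These C1qc values rest on 10 to 48 counts per library. The 95% interval of the log2 fold change was -1.06 to 0.91, and the estimates for C1qa and C1qb lie above its upper end, but the difference between the chains was not tested. Whether C1qa and C1qb passed the threshold depended on the fit. C1qa was called in 2 of 14 alternatives (adjusted p = 0.0395 with counts halved and 0.0321 with the day 3 libraries alone; range 0.0321 to 1.0) and C1qb in 1 of 14 (adjusted p = 0.0465 without the second T.mu library; range 0.0465 to 1.0), all by edgeR.

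C3 had the highest fold change of the 9 genes at day 3, and whether it was called depended on the filter, the tool and 1 library. C3 was at 180, 62.2 and 190 CPM in the T.mu libraries and at 51.9, 55.2 and 33.8 CPM in controls. The T.mu libraries from litters 1 and 3 were far above the highest control, while that from litter 2 was near the controls. Ribosomal RNA and Lars2 made up 10.7% of the counts of the litter 2 T.mu library. Their share was 28.1% and 24.8% in the other T.mu libraries and 20.8% to 23.7% in controls. Whether this bears on its C3 level was not tested. Means were 144 ± 70.9 and 47.0 ± 11.5 CPM (SD, n = 3 each). The log2 fold change was 1.60 ± 0.37 (3.02-fold), with an adjusted p of 0.0863 by edgeR. Without the litter 2 T.mu library it was 1.97 with an adjusted p of 1.5e-05 by edgeR. C3 also passed with no filter on low counts (adjusted p = 2.73e-07 by edgeR) and by DESeq2 (adjusted p = 0.0114), and the adjusted p over 14 alternatives ran from 2.73e-07 to 0.446.

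Lyz2 and Apoe, products that macrophages secrete in quantity, were also separated at day 3. Lyz2 was at 111, 112 and 139 CPM with T.mu and at 72.3, 83.8 and 44.9 CPM in controls. Apoe was at 254, 239 and 308 CPM with T.mu and at 201, 189 and 117 CPM in controls. In both genes every T.mu library was above every control. On the log2 scale the difference was 0.84 ± 0.28 for Lyz2 (1.79-fold; adjusted p = 0.411) and 0.65 ± 0.21 for Apoe (1.57-fold; adjusted p = 0.29), both by edgeR. Lyz2 was called in 1 of 14 alternatives, the fit of the day 3 libraries alone (adjusted p = 0.022 by edgeR; range 0.022 to 1.0). Lyz2 has a near-identical neighbour, Lyz1, the lysozyme of Paneth cells, so reads may be split between them, and the values of both are uncertain. Lyz1 was at 7.62, 3.43 and 11.96 CPM with T.mu and at 1.85, 2.53 and 0.889 CPM in controls at day 3.

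The other macrophage genes, Csf1r, Cd68 and Ctss, overlapped between the arms at day 3. Csf1r was at 12.7, 19.6 and 22.4 CPM with T.mu and at 19.8, 13.2 and 9.34 CPM in controls. Cd68 was at 9.31, 5.38 and 8.97 CPM with T.mu and at 5.25, 6.08 and 3.11 CPM in controls. Ctss was at 443, 512 and 429 CPM with T.mu and at 567.7, 486 and 484 CPM in controls. The last gene was measured most precisely: its log2 fold change was -0.15 ± 0.16 with a 95% interval of -0.48 to 0.17. The estimates were 0.37 ± 0.42 for Csf1r and 0.68 ± 0.61 for Cd68, and the adjusted p of all 3 was 0.999 by edgeR.

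Markers of some other cell types moved with the arm at day 3. The summed fibroblast markers were at 1930 to 2640 CPM with T.mu and 890 to 1910 CPM in controls, without overlap. The summed level of 7 adipocyte markers, all detected, was at 93.5 to 137 against 46.7 to 60.5 CPM, and that of 26 macrophage markers, all detected, at 313 to 377 against 212 to 280 CPM, both without overlap. The 7 endothelial markers, all detected, also separated, at 40.1 to 55.4 against 33.6 to 37.7 CPM. The 7 smooth muscle markers (4910 to 5110 against 2700 to 5530 CPM), the 6 general leukocyte markers (45.5 to 70.7 against 43.4 to 47.6 CPM) and the 11 epithelial markers (57300 to 73600 against 63900 to 65300 CPM) overlapped. The summed markers of B and plasma cells, T cells, dendritic cells, enteric glia, and mast cells and eosinophils overlapped as well. The part of these cell types in the day 3 values of C1qa, C1qb, C3, Lyz2 and Apoe was not tested. Neutrophil markers summed to at most 5.98 CPM at day 3, with S100a9, Ngp and Camp at 0 in both arms.

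**Figure D2:**
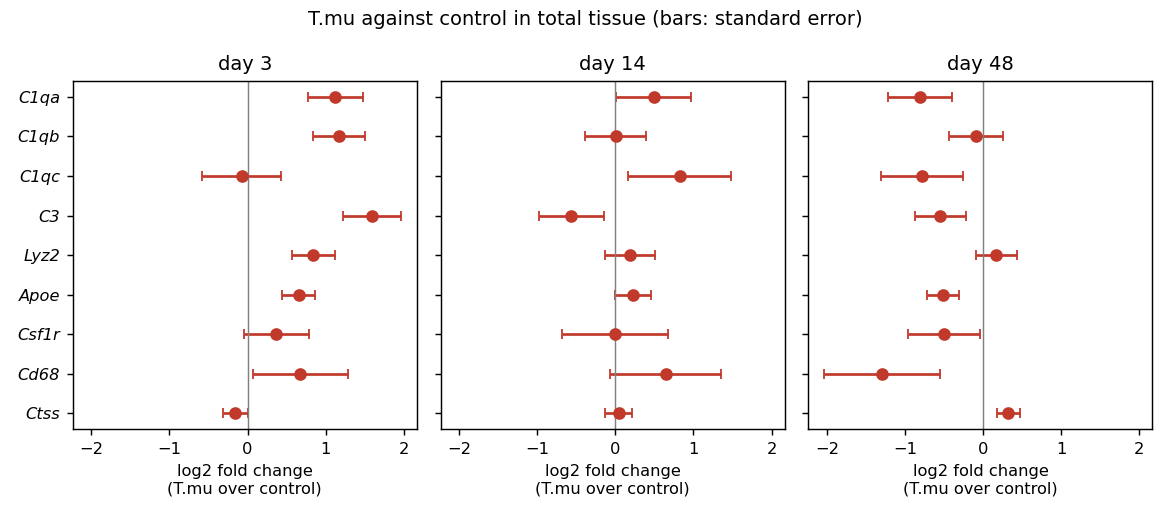
Log2 fold change of T.mu over control in total tissue (horizontal axis) for each of the 9 genes (vertical axis) at days 3, 14 and 48; points are edgeR estimates and bars their standard errors. At day 3 the estimates of C1qa, C1qb, C3, Lyz2 and Apoe are between 0.65 and 1.60, and at day 48 those of 7 genes are below 0, none past the threshold.

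At day 14 the 9 genes overlapped between the arms. None was called (0.949% of all genes were), none had an unadjusted p under 0.05 (9.23% of all genes did) and DESeq2 called none (1.59%). The C1qa libraries were at 23.3, 11.7 and 16.7 CPM with T.mu and at 11.0, 15.9 and 12.5 CPM in controls, and C3 was at 54.3, 40.4 and 75.2 against 65.9, 47.7 and 107 CPM. The estimates ran from -0.57 ± 0.41 for C3 to 0.83 ± 0.66 for C1qc. Leaving out 1 library moved that of C3 to between -0.74 and -0.071 and that of Cd68, 0.64 ± 0.71, to between 0.085 and 7.748, the last without the litter 3 control, the only day 14 control with Cd68 counts. Their median was 0.19 against 0.06 over all genes. Of the genes called at day 14, 84.7% were higher with T.mu, against 70.2% when the scaling was RLE. The control libraries from litters 1 and 2 held 4 counts of C1qa each, and Cd68 was at 0 in both, so changes in those genes could not be resolved at this depth. Ctss, with at least 94 counts in every library, had a log2 fold change of 0.04 ± 0.17 and a 95% interval of -0.29 to 0.37.

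At day 48, 7 of the 9 estimates were below 0, with a median over the 9 of -0.52 against -0.105 over all genes, and Lyz2 and Ctss were above 0. None was called (1.8% of all genes were), 3 had an unadjusted p under 0.05 (13.6% of all genes did) and DESeq2 called 1, Ctss, and 7.11% of the 6508 genes to which it gave an adjusted p. C1qa was at 18.6, 15.4, 11.3 and 0 CPM with T.mu and at 13.5, 18.4, 29.98 and 22.4 CPM in controls. The T.mu library at 0 was also lowest or joint lowest in C1qb, Lyz2, Csf1r and Cd68 and held few counts of each (at most 6). Apoe was at 92.9, 114, 96.1 and 112 CPM with T.mu and at 90.8, 178, 152 and 174 CPM in controls. One control was as low as the T.mu libraries and the other 3 were above all of them. The log2 fold change was -0.52 ± 0.20 for Apoe (adjusted p = 0.202) and -0.81 ± 0.40 for C1qa (adjusted p = 0.366), both by edgeR.

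C3 at day 48 was at 173, 123, 128 and 168 CPM with T.mu and at 154, 203, 307 and 188 CPM in controls. The groups overlapped through the lowest control, and the log2 fold change was -0.55 ± 0.33 (adjusted p = 0.502 by edgeR). Ctss was at 402, 476, 575 and 529 CPM with T.mu and at 380, 426, 416 and 379 CPM in controls. All T.mu libraries but 1 were above every control. The log2 fold change of Ctss was 0.32 ± 0.15 (1.25-fold), with an adjusted p of 0.3 by edgeR and 0.0219 by DESeq2, in a range of 0.0219 to 0.814 over 16 alternatives. DESeq2 was fitted without the filter on low counts. At this day 4 control libraries of 2223459 counts or more were set against 4 T.mu libraries of 1365299 or fewer, and the arms carried different second barcodes.

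Averaged over the 3 days, none of the 9 genes was called (1.9% of all genes were), 1 (Lyz2) had an unadjusted p under 0.05 (10.9% of all genes did) and DESeq2 called none (2.81%). The estimate for Lyz2 was 0.40 ± 0.17 (adjusted p = 0.321 by edgeR). Whether the T.mu effect differed between days was tested directly. None of the 9 was called by edgeR (0.0684% of all genes, or 8, were), 4 had an unadjusted p under 0.05 (9.74% of all genes did) and DESeq2 called 2, C3 and Apoe. DESeq2 gave an adjusted p to 2432 genes there and called 6.62% of them; C1qa, C1qb, C1qc, Csf1r and Cd68 were not among them. The adjusted p of the day difference was 0.141 for C3, 0.141 for Apoe and 0.224 for C1qa by edgeR. Over 27 alternatives it ran from 7.09e-09 to 0.367 for C3 and from 0.0313 to 0.444 for Apoe. Apoe was called without the lowest day 48 control library (adjusted p = 0.0404 by edgeR) and C3 without the litter 2 T.mu library of day 3 (adjusted p = 1.14e-05 by edgeR).

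The rest of the complement system gave few calls in total tissue. Of 23 listed components other than C1q and C3, 8 passed the filter, and Cfd alone was called, at day 48 (1.8% of all genes were). None was called at day 3, where 2 had an unadjusted p under 0.05 and DESeq2 called 1, Cfd. At day 3 all 8 estimates were above 0, with a median log2 fold change of 0.65 against -0.01 over all genes, and at day 48 7 of the 8 were below 0, with a median of -0.54 against -0.105. The listed regulators (6 of 10 tested) and receptors (3 of 8 tested) had no call on any day by edgeR. At day 3 their medians were 0.25 and 1.07, with 2 and 1 unadjusted p under 0.05 and none called by DESeq2. At day 14 neither list had an unadjusted p under 0.05 or a DESeq2 call, and at day 48 the regulators had 2 and 1 and the receptors none. Over all genes tested, the shares with an unadjusted p under 0.05 were 5.18%, 9.23% and 13.6% at days 3, 14 and 48. Of the genes to which DESeq2 gave an adjusted p, it called 0.76%, 1.59% and 7.11%. Serping1, the inhibitor of C1r and C1s, had a day 3 estimate of 0.72 ± 0.31 (adjusted p = 0.886 by edgeR).

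Cfd encodes factor D, the protease of the alternative pathway that cleaves factor B once it is bound to C3b, and fat cells are its main source. At day 48 Cfd was at 55.7, 86.3, 27.0 and 104 CPM with T.mu and at 245, 1236, 302 and 723 CPM in controls. Every control was above every T.mu library, as in 7.01% of all 11696 genes tested. On the log2 scale the difference was -3.31 ± 0.78 (adjusted p = 0.0455 by edgeR). Cfd was called in 5 of 16 alternatives, with adjusted p from 0.00817 to 0.202. The call was lost with litter as a block (adjusted p = 0.0962), with no filter on low counts (0.0652), without libraries under 400000 counts (0.202) and with the day 48 libraries alone (0.144), all by edgeR. It was also lost without any single day 48 library except the control from litter 1, with adjusted p of 0.0615 to 0.12 by edgeR. At day 3 the order was the opposite: Cfd was at 49.9, 34.8 and 46.3 CPM with T.mu and at 5.87, 2.03 and 0 CPM in controls. That estimate was 4.14 ± 1.06, with an adjusted p of 0.196 by edgeR and 0.0105 by DESeq2.

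Of 14 listed genes of lipid handling, 13 were tested, with 9 estimates below 0 at day 48 and a median of -0.331 against -0.105 over all genes. Fabp4, a fatty acid carrier, and Lpl, lipoprotein lipase, were called lower with T.mu at day 48, as were 0.795% of all genes. None of the 13 was called at days 3 and 14. There 1 gene each had an unadjusted p under 0.05 (5.18% and 9.23% of all genes did), and DESeq2 called none. Fabp4 was at 43.3, 24.6, 12.02 and 48.0 CPM with T.mu and at 89.1, 369, 109 and 264 CPM in controls. Lpl was at 37.1, 24.6, 21.0 and 8.01 CPM with T.mu and at 66.3, 196, 56.3 and 115 CPM in controls. In both genes all controls were above all T.mu libraries, as in 7.01% of all genes tested. The log2 fold change was -2.96 ± 0.53 for Fabp4 (adjusted p = 0.0081) and -2.22 ± 0.47 for Lpl (adjusted p = 0.0177), both by edgeR, and both calls were lost when the total tissue libraries of under 400000 counts were left out (adjusted p = 0.0598 and 0.202) and in the fit of the day 48 libraries alone (adjusted p = 0.165 and 0.0868). The Lpl call was also lost without the T.mu library of litter 2, 3 or 4 (adjusted p = 0.0655, 0.0666 and 0.0601 by edgeR).

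Adipocyte markers moved the same way at day 48. Their sum was 55.6 to 125 CPM with T.mu, with Plin1, Lep and Adrb3 at 0, and 344 to 1600 CPM in controls, with all 7 detected. The 11 epithelial markers, all detected, moved the other way, with sums of 58500 to 62300 CPM with T.mu and 44100 to 57400 CPM in controls, without overlap. The part of either in the day 48 values of Cfd, Fabp4, Lpl and the 9 genes was not tested.

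**Figure D3:**
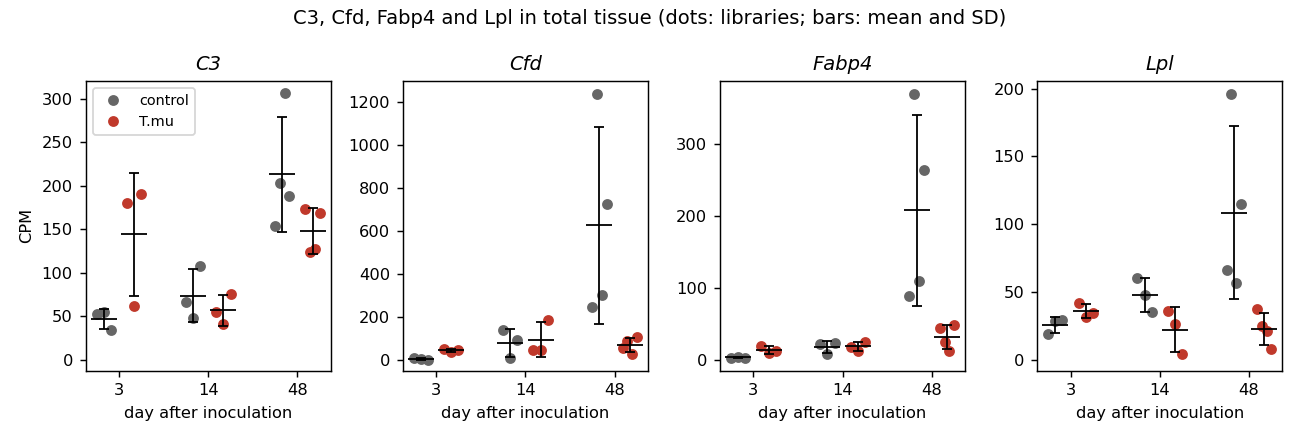
Level of C3, Cfd, Fabp4 and Lpl in total tissue, in CPM scaled by TMM (vertical axes), by day after inoculation (horizontal axes); dots are libraries, grey for control and red for T.mu, with the mean and SD, and lower SD bars stop at 0. At day 48 the 4 controls lie above the 4 T.mu libraries for Cfd, Fabp4 and Lpl, and overlap with them for C3.

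Macrophage and lysosome genes outside the 9 gave 1 call in total tissue. Of 26 listed macrophage markers 19 were tested and none was called on any day by edgeR or DESeq2, with 3, 2 and 1 unadjusted p under 0.05 at days 3, 14 and 48. The shares of all genes with such a p were 5.18%, 9.23% and 13.6%. At day 3, 16 of the 19 estimates were above 0, and the median log2 fold change was 0.615 against -0.01 over all genes. All 21 listed lysosomal genes were tested, and at day 3 their median was -0.06, with none called, 1 unadjusted p under 0.05 and none called by DESeq2. At day 14 Ctsz, cathepsin Z, was called, as were 0.949% of all genes. Ctsz was at 175, 268 and 219 CPM with T.mu and at 126, 119 and 118 CPM in controls. Its T.mu libraries were all above every control, as in 8.49% of all genes tested. Its log2 fold change was 0.88 ± 0.21 (1.84-fold; adjusted p = 0.0142 by edgeR). The summed epithelial markers, all 11 detected, also separated at day 14, at 69300 to 74600 CPM with T.mu and 51400 to 59300 CPM in controls, and their part in the Ctsz value was not tested. The call was lost in 6 of 14 alternatives, which included leaving out the T.mu library of litter 2 (adjusted p = 0.26) and each control library (0.064, 0.0605 and 0.0525), all by edgeR. At day 48 none of the 21 was called. An unadjusted p under 0.05 was found for 10, against 13.6% of all genes, and DESeq2 called 2, against 7.11%. Of the 21 estimates 18 were below 0, with a median of -0.28 against -0.105 over all genes. Of 7 listed ligands and partners of Csf1r, 4 were tested and none was called on any day by edgeR or DESeq2, with 1 unadjusted p under 0.05 at day 3 and none at the other days.

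The second question was how much of each gene was left in the epithelial libraries. For 8 of the 9 genes few counts were, at a pooled 0.63% to 12.7% of the total tissue level within each arm. Over all 20 epithelial libraries C1qa had 4 counts and was at 0 in 18 libraries. C1qb had 20 counts (13 libraries at 0), C1qc 18 (12), Csf1r 18 (11) and Cd68 17 (12). Lyz2 had 42 counts (6 libraries at 0), Apoe 58 (7) and C3 94 (2). Of these 8 genes no epithelial library held more than 16 counts or 13.2 CPM. A count of 0 allows up to 1.05 CPM in the deepest epithelial library and up to 14.9 CPM in the shallowest, at 3 counts. The latter is above the pooled total tissue levels of C1qc, Csf1r and Cd68 (7.01 to 13.9 CPM). A 0 in such a shallow library therefore cannot show that these genes were lower there. Ctss differed from the other 8: it had 4320 counts and was detected in every epithelial library.

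With counts pooled over the 10 control libraries of each tissue, the epithelial level of C1qa was 1.11% of that of total tissue (95% interval 0.134 to 4.03%), from 2 counts. Total tissue was thus 90.0 times epithelium, with an interval of 24.8 to 745. Apoe was at 1.25% (0.743 to 1.99%), C3 at 3.02% (2.18 to 4.08%), Lyz2 at 3.63% (2.37 to 5.34%) and C1qb at 4.33% (2.15 to 7.78%). Cd68, Csf1r and C1qc, the genes with the fewest counts in total tissue, were at 7.77% (2.5 to 18.4%), 8.7% (4.31 to 15.7%) and 10.2% (5.25 to 18.1%). Ctss was at 43.6% (41.5 to 45.8%). In the T.mu libraries Ctss was at 42.9% (41.1 to 44.9%) and C1qa at 0.63% (0.0761 to 2.29%), the latter from 2 counts. Lyz2 was at 1.24% (0.707 to 2.02%), Apoe at 1.58% (1.13 to 2.16%) and C1qb at 1.93% (0.88 to 3.7%). Csf1r was at 3.94% (1.57 to 8.24%) and C3 at 4.18% (3.1 to 5.52%). C1qc was at 5.0% (1.81 to 11.1%) and Cd68 at 12.7% (6.39 to 23.0%). The intervals are exact binomial ones on counts, cover counting error only and weight deep libraries more. They take each count as independent, so they are too narrow if both mates of a pair were counted.

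**Figure D4:**
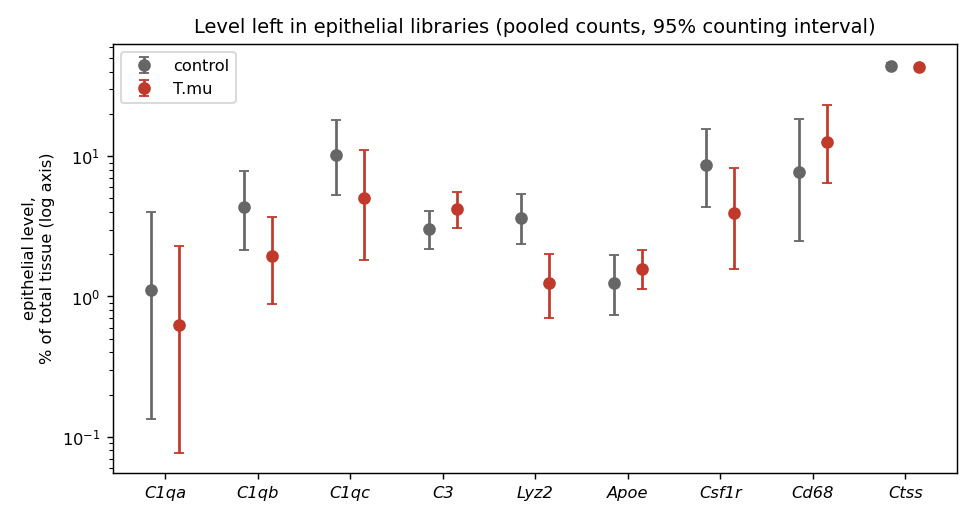
Pooled epithelial level as a percent of the pooled total tissue level (vertical axis, logarithmic) for each of the 9 genes (horizontal axis), with 95% counting intervals; grey is control and red T.mu, 10 libraries per tissue and arm. Ctss lies at 43.6% and 42.9%, and the other 8 genes lie between 0.63% and 12.7%.

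All 9 genes were lower in epithelium than in total tissue in controls and all 9 in T.mu libraries, by edgeR over all 40 libraries. This is to be read against a wide difference between the tissues: 52.8% of all 11834 genes were called in controls and 52.8% in T.mu libraries, and 29.7% and 26.6% were called lower in epithelium. The share of calls that were higher in epithelium was 43.7% in controls with TMM and 57.6% with RLE, and that scaling shifted the all-gene median by 0.25 (log2) in controls and by 0.15 in T.mu libraries. No member changed direction under either scaling. The log2 fold change of Ctss was -1.29 ± 0.12 in controls (adjusted p = 6.63e-17) and -1.16 ± 0.11 in T.mu libraries (adjusted p = 2.6e-15), and that of C3 was -4.34 ± 0.31 (adjusted p = 6.49e-17) and -4.61 ± 0.29 (adjusted p = 3.7e-19). The adjusted p of the other 7 was at most 3.81e-05 in controls (Cd68) and 0.000198 in T.mu libraries (Cd68). Their fitted fold changes depend on the prior count where a group of libraries is at 0, so the pooled ratios describe their size. The Cd68 call in controls was kept in 26 of 27 alternatives, with adjusted p from 1.49e-06 to 1.0. It was lost without the day 14 total tissue control from litter 3, the only one of its group with Cd68 counts. Cd68 was then at 0 in every day 14 control library of both tissues, so that fit cannot decide the question. In controls Cd68 had 55 counts in total tissue and 2 in epithelium at day 3, and 143 and 3 at day 48.

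T.mu and control epithelium could be compared for Ctss alone, since it was the only one of the 9 to pass the filter on low counts there. It was called on no day, while 0.356%, 0.504% and 0.287% of all 10119 genes were called at days 3, 14 and 48. Its unadjusted p was above 0.05 on each day, and DESeq2 did not call it. At day 3 Ctss was at 219, 237 and 174 CPM with T.mu and at 145, 165 and 109 CPM in controls. The T.mu libraries were all above the controls, as they were for 8.5% of all genes tested. On the log2 scale the difference was 0.47 ± 0.25 (adjusted p = 0.488 by edgeR), with a 95% interval of -0.02 to 0.96. At days 14 and 48 it was -0.07 ± 0.23 and 0.09 ± 0.20. Lyz2 and Apoe had 2 to 4 counts in each T.mu library of epithelium at day 3 and 0 in each control library, which held 170297 to 670939 counts, so no difference was detectable at this depth. At day 14 Lyz2 in epithelium had the opposite order, at 1.32, 0 and 0 CPM with T.mu (2, 0 and 0 counts) and at 7.64, 2.00 and 3.70 CPM in controls (6, 2 and 4 counts), as did 8.97% of all genes tested.

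Other genes of the lists also differed between epithelium and total tissue. The examples in this paragraph were chosen after their values were seen. Of the complement components 5 of 7 tested were lower in epithelium in controls and 5 of 7 in T.mu libraries. C1s1, the protease that C1q activates through C1r, was at 12.5 to 61.9 CPM in total tissue and at most 6.12 CPM in epithelium. Serping1 was at 31.8 to 170 CPM in total tissue and at most 7.17 CPM in epithelium. C4bp, an inhibitor of the C4b-containing convertase, went the other way. It was at 3.63 to 38.3 CPM in epithelium and at most 4.49 CPM in total tissue, with a log2 difference of 3.85 ± 0.47 in controls (adjusted p = 1.55e-11 by edgeR). Of the macrophage markers 13 of 19 were called in controls, 11 lower and 2 higher, and 17 of 19 in T.mu libraries, 15 lower and 2 higher. Tyrobp, a signalling adaptor of myeloid cells, was among the lower (at most 5.92 CPM in epithelium). Of the 21 lysosomal genes, 13 were lower and 2 higher in controls, and 12 lower and 4 higher in T.mu libraries. Ctsl, the relative of Ctss that trims the invariant chain in thymic epithelium, was lower by an estimate of -1.60 ± 0.13 in controls (adjusted p = 1.3e-18 by edgeR).

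The 9 genes did not vary as a single block over the 20 total tissue libraries. Over those libraries Pearson's r of log2(CPM + 1) was 0.89 between C1qb and Lyz2, 0.80 between C1qa and Lyz2, 0.80 between C1qa and Csf1r and 0.75 between C1qa and C1qb. C1qc had an r of 0.092 with C1qa and -0.195 with C1qb, and Ctss had an r between -0.317 and 0.085 with the other 8. After the group means were subtracted, r was 0.88 between C1qb and Lyz2 and 0.76 between C1qa and C1qb. The points share libraries and depth: the low libraries in C1qa, C1qb and Lyz2 include the T.mu library of litter 4 at day 48, which held few counts. These values are given as a description.

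**Figure D5:**
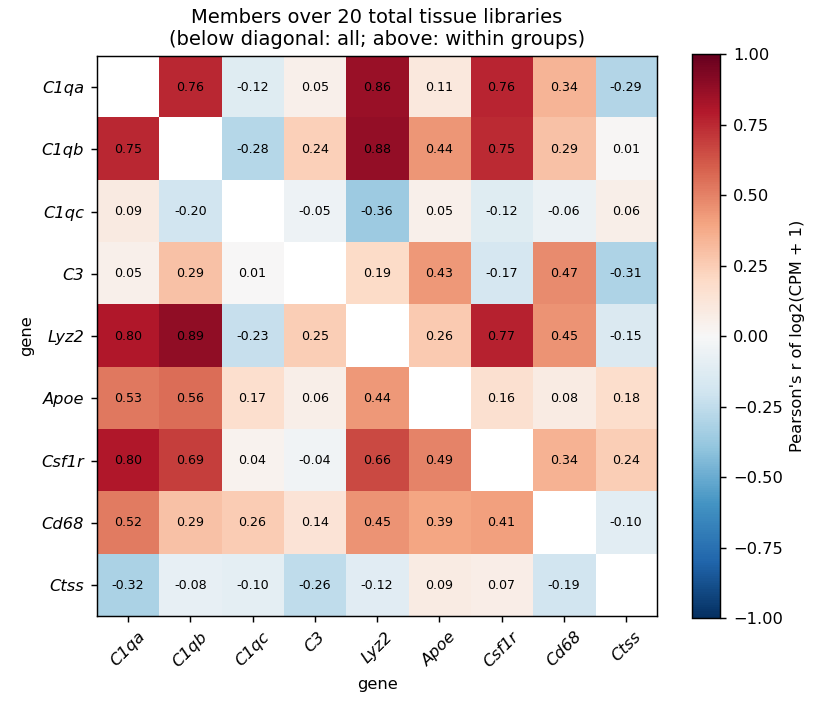
Pearson's r of log2(CPM + 1) for each pair of the 9 genes (both axes) over 20 total tissue libraries, below the diagonal over all libraries and above it after subtraction of group means; colour runs from -1 (blue) to 1 (red). C1qa, C1qb, Lyz2 and Csf1r lie between 0.664 and 0.888 with each other over all libraries, and C1qc and Ctss reach at most 0.256 with any other gene.

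Over the same 20 libraries, 5040 genes had a mean of at least 20 CPM. The mean log2 profile of C1qa, C1qb and C1qc was compared only with genes outside the macrophage and complement genes described here. The rankings for single genes, given below, could include members of that set, such as Lyz2 for C1qb. Closest to the mean profile were Cd59a (r = 0.835), Cavin2 (0.82), Khk (0.81), Mlf2 (0.80) and Ang (0.80). Next came Klhl23 (0.80), Mgp (0.80), Leprot (0.79), Kmt5c (0.79) and Grn (0.79). The mean profile includes C1qc, which did not vary with C1qa (r = 0.092) or C1qb (r = -0.195), and all these values share libraries and depth. Cd59a encodes an inhibitor of the membrane attack complex and Grn the lysosomal protein progranulin. For C1qa alone the closest genes were Pcolce (r = 0.94), F13a1 (0.93) and Map2k2 (0.92), of which F13a1 encodes coagulation factor XIII A, made by tissue macrophages, and Pcolce an enhancer of procollagen processing made by fibroblasts. C1qb was closest to Lyz2, Cnn1 (r = 0.85) and Ifitm3 (0.83), and Lyz2 to C1qb, Anxa6 (0.845) and Pcp4l1 (0.83). Cd68 was closest to Irf8 (r = 0.91), a transcription factor of macrophages and dendritic cells, then to Nectin2 (0.805) and Tmem63b (0.80). Csf1r was closest to Atp6v1f (0.915), Ap1m1 (0.90) and Il6st (0.90), and C1qc to Tsc22d4 (0.92), Strn (0.85) and Fzd5 (0.84). C3 was closest to Igf1 (r = 0.81), Slc16a1 (0.79) and Tmem43 (0.76), with values of 0.37, 0.504 and 0.383 within groups. Apoe was closest to Tmem176a (0.78), Gm15564 (0.77) and Cst3 (0.76), with values of 0.515, 0.366 and 0.255 within groups. Ctss was closest to Sec23a (0.83), a subunit of the COPII coat, to Chp1 (0.76) and to Cdh17 (0.74), an intestinal epithelial cadherin.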

How the data were processed

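RNA of 40 mouse colon libraries was sequenced as 3′ digital gene expression. The values are whole-number counts per gene, as deposited by the authors. STAR and Subread are named in the submitters' processing notes; their versions, the genome build, the annotation and the strand setting are not given in the sources used here, nor is the handling of molecular identifiers. Even numbers made up 61.2% or more of small counts in every library, so both mates of a pair may have been counted, and one alternative halved the counts. One entry that is no mouse gene, with 0.389% of all counts, was left out. Of 45792 gene IDs, 98.6% had a symbol.

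Groups came from the labels. Genes passed edgeR's filterByExpr (minimum count 10, minimum total 15). Each tissue was fitted alone and both together for epithelium against total tissue, with edgeR 4.0.16 (limma 3.58.1, R 4.3.3), TMM scaling, the robust quasi-likelihood test and Benjamini-Hochberg adjustment over all genes at 0.05. DESeq2 1.42.0, RLE scaling, no filter, the litter as a block, fewer libraries and the omission of ribosomal RNA and Lars2 were alternatives. The fit was tested on simulated data. The 95% intervals of pooled counts and the floors of 3 counts cover counting error only and use counts that were not halved. If both mates of a pair were counted, these intervals are too narrow and the floors too low. The 95% intervals of log2 fold changes come from edgeR's standard error, which includes the spread between libraries. Pairing follows the replicate numbers, taken as litter numbers, and deviations of libraries with the same number correlated between -0.105 and 0.186. Genes outside the 9 were named when called, as the 10 or 3 closest profiles (mean of at least 20 CPM, pseudocount 1), or as said in the text. The 9 genes and all lists were chosen with earlier results of these data known. Python 3.11.15 with SciPy 1.17.1 and matplotlib 3.10.9 made the summaries.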

Additional observations from a re-analysis of the deposited data

Results flagged for a closer look

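Of 38 sets of values, each 1 gene in 1 group of 4 libraries, 3 had 1 library far from the others, with a gap to the nearest above 0.829 of the set's range. Chance flags about 1 in 20 sets of continuous values, but any set with counts in 1 library and 0 in the rest is flagged, as both C1qb sets were. C1qb in day 48 epithelium was at 1.95 CPM in 1 T.mu library and at 1.88 CPM in 1 control library, 2 counts each, while the other libraries of both groups were at 0. Lyz1 in day 48 control total tissue was at 212.4 CPM (825 counts) in the library of litter 4 and at 4.65, 3.89 and 9.01 CPM in the others. Lyz2, its near-identical neighbour, was at 79.8 CPM in that library, within the 63.4 to 107 CPM of the other controls.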

How the results depend on the processing

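The number of genes called moved with the fit. In total tissue it went from 56 to 101 (DESeq2), 85 (counts halved) and 103 (libraries of the comparison alone) at day 3, from 111 to 190 (DESeq2) and 27 (without libraries under 400000 counts, which leaves 1 day 14 control, assumed to vary like the other groups) at day 14, and from 210 to 463, 99 and, with the libraries of the comparison alone, 119 at day 48. For the mean over days 222 became 373 and 145 (DESeq2, without shallow libraries), and for the day difference 8 became 73 (no filter), 161 (DESeq2) and 4 (without shallow libraries). In epithelium 36 at day 3 became 20 (halved), 9 (without shallow libraries) and 12 (own libraries), and 51 at day 14 became 126 (DESeq2), 80, 90 and 261. Of the 9 genes, 1 was called at day 3 with no filter, 1 by DESeq2, 1 with counts halved and 2 with own libraries, 1 at day 48 by DESeq2, and 2 for the day difference with no filter and 2 by DESeq2. Without single libraries the 9 gave 0 to 2 calls at day 3 and 0 to 1 for the day difference, and all genes gave 54 to 196 (day 14), 100 to 293 (day 48) and 1 to 76 (day difference) in total tissue and 18 to 52, 19 to 50 and 13 to 28 in epithelium at days 3, 14 and 48.

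With litter as a replicate block, the paired analysis changed no call of the 9 genes, and the Cfd call at day 48 was lost (adjusted p = 0.0962 by edgeR).

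Some estimates changed sign, none of them called; most were near 0, but Cd68 at day 14 was at 0.645. At day 14 C1qb became -0.074 (RLE), -0.143 (DESeq2), -0.062 (block), -0.025 (ribosomal RNA left out) and -0.109 (own libraries), Csf1r 0.059 (no filter), 0.044 (block), 0.09 (halved) and 0.035 (without shallow libraries), Cd68 -0.129 (without shallow libraries) and Ctss -0.057 (RLE), -0.036 (DESeq2) and -0.035 (own libraries). In the mean over days C1qc became 0.001 (DESeq2), 0.032 (block) and 0.05 (without shallow libraries), C3 -0.076 and Csf1r 0.063 without shallow libraries, Csf1r 0.026 with counts halved, and Cd68 -0.06 (no filter), -0.142 (halved) and -0.296 (without shallow libraries). Without single libraries the range was -0.305 to 0.253 for C1qc at day 3; -0.23 to 0.224 for C1qb, -0.003 to 0.331 for Apoe, -0.197 to 0.209 for Csf1r and -0.1 to 0.136 for Ctss at day 14; -0.244 to 0.101 for C1qb and -0.066 to 0.399 for Lyz2 at day 48; -0.142 to 0.096 for C1qc, -0.378 to 0.04 for Csf1r and -0.27 to 2.373 for Cd68 in the mean; and -0.174 to 0.041 for Ctss in day 14 epithelium. The cause was not tested. Of the alternatives for single genes, 1720 kept direction and side of the threshold, 62 changed sign, 25 lost a call and 14 gained one. Depth limits C1qc, Csf1r and Cd68 in total tissue and all of the 9 but Ctss in epithelium.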
